A study of Mus musculus with 2 samples.

Results

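The genes described here are 37 genes of the unfolded protein response and the integrated stress response, matched by symbol among the 32285 genes of the deposited matrices. They fall into 14 chaperones and foldases of the endoplasmic reticulum (ER), 4 genes of ER-associated degradation, 3 ER sensors with the transcription factor Xbp1, Atf4 with 6 of its stress targets and feedback genes, and 8 genes of amino-acid supply that ATF4 drives. The question was how the ER chaperones and the ATF4 amino-acid genes differed between 2 h and 9 h after muscle injury in each cell type. All 37 genes were found, Ddit3 in 2 rows, of which ENSMUSG00000025408 held all 3895 UMIs (unique molecules) and the nested ENSMUSG00000116429 held 0.

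Mononuclear cells came from the quadriceps of wild-type (WT) mice that had received 100 µl of 1.2% (w/v) BaCl2 by intramuscular injection, a salt that kills muscle fibres, and were taken at 2 h or at 9 h. The cells were cryo-preserved, thawed and run on 10x Genomics 3′ chemistry, with 1 library per time and no uninjured library among those analysed here. The sources used here do not give the strain, the age or the number of animals behind each library. Time, animal and library therefore cannot be told apart, and no difference below could be checked against replicates.

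The libraries kept 4900 cells (27598413 UMIs, median 4519 per cell) at 2 h and 8147 cells (35127600 UMIs, median 2327) at 9 h, and 12 barcodes occurred in both. Clustering without the members gave 20 clusters, which marker genes joined into 12 classes, each called "like" its cell type. Classes with at least 100 cells in each library were compared: fibro-adipogenic progenitor (FAP)-like cells, the mesenchymal cells between fibres (2025 and 2381 cells), neutrophil-like (1633 and 4296), monocyte-like (172 and 357), resident macrophage-like (314 and 234), endothelial-like (263 and 538) and dendritic-like cells (141 and 117). Each FAP-like cluster carried all 15 FAP markers, and each neutrophil-like cluster carried at least 11 of 12 neutrophil markers. Different clusters held these classes at the different times. FAP-like cells were mostly clusters 3 and 7 at 2 h (1421 and 594 cells) and clusters 2, 8 and 12 at 9 h (1502, 591 and 242 cells), while neutrophil-like cells were mostly cluster 0 at 2 h (1448 cells) and clusters 1, 4 and 5 at 9 h (1480, 1167 and 1115 cells).

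The unfolded protein response is set off when unfolded proteins build up in the ER. Its sensors ATF6, IRE1 (encoded by Ern1) and PERK (Eif2ak3) act through cleaved ATF6, spliced XBP1 and phosphorylated eIF2α, and the first pair of arms raises chaperones, foldases and degradation genes. Phosphorylated eIF2α is shared with the integrated stress response, in which amino-acid lack, haem lack or viral RNA act through other kinases; it favours translation of ATF4, which raises amino-acid transporters, serine and asparagine synthesis and tRNA synthetases. Because ATF4 is controlled mainly in translation and XBP1 by splicing, 3′ UMI counts measure neither step. Secretory cells such as fibroblasts carry high chaperone levels.

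Promoters are shown because motifs for these factors lie in some of them. RefSeq promoters of 300 bases (250 before and 50 after the start site, GRCm38.p6, the assembly of mm10) were found for 33 of the 37 genes, and Atf6, Hyou1, Manf and Slc7a5 had none in the table. The ER stress response element ERSE (CCAAT, any 9 bases, then CCACG, on either strand) lay in 8 of these 33 promoters and in 0.119% of all 32851 promoters. The carriers were 7 of 12 chaperones (Hspa5, Hsp90b1, Pdia6, Calr, Canx, Creld2 and Dnajc3) and Syvn1, and 0 of 7 amino-acid genes. In the lines below, each gene's own strand is printed 5′ to 3′, and capitals mark the motif, which in Calr and Creld2 lies on the opposite strand.
Hspa5 (chr2:34772020-34772048, plus strand): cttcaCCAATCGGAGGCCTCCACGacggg
Hsp90b1 (chr10:86705613-86705681, minus strand): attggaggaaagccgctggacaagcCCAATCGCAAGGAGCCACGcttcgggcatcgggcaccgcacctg
Pdia6 (chr12:17266466-17266534, plus strand): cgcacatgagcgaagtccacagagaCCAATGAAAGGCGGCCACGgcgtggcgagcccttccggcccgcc
Dnajc3 (chr14:118937802-118937870, plus strand): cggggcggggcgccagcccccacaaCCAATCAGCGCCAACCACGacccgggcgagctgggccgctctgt
Canx (chr11:50325775-50325843, minus strand): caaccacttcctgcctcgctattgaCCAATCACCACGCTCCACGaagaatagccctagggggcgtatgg
Calr (chr8:84847050-84847118, minus strand): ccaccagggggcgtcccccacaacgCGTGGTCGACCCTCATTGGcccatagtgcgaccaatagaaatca
Creld2 (chr15:88819495-88819563, plus strand): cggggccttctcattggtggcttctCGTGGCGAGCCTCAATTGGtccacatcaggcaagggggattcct

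The Hspa5 element ran from 65 to 46 bases before the RefSeq start site. The GENCODE gene begins upstream of that site, and the printed Hspa5 stretch overlaps an annotated exon. The Pdia6 element ran from 98 to 79 bases before its start site. Hsp90b1 also held an ERSE on the opposite strand, 107 to 88 bases before its start site and over an annotated exon, which is not printed. The related ERSE-II (ATTGG, any 1 base, then CCACG) lay in 0.0365% of all promoters and in 2 of the 33, Herpud1 and Dnajb11. The C/EBP-ATF response element, written here as TGATGNAA, lay in 3.97% of all promoters and in 4 of the 33 (Asns, Chac1, Herpud1 and Trib3), and the element TGACGTGG lay in 0.676% of all and 0 of the 33. The Herpud1 ERSE-II and the Asns element, the latter 23 to 15 bases before the start site and overlapping an annotated exon, are shown for comparison. A match of letters is a description and not a binding site.
Herpud1 (chr8:94386352-94386412, plus strand): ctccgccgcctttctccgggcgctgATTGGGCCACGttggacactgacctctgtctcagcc
Asns (chr6:7693214-7693243, minus strand): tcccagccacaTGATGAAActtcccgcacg

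Levels are given as CPM, a gene's UMIs among 1000000 UMIs of a class in a library. In 3′ counting each transcript gives about the same number of tags whatever its length, so levels of different genes were set side by side without dividing by length. A gene was measured in a class if it had at least 100 UMIs over both libraries, and it was called higher or lower when its level at 9 h was at least 1.5-fold above or below that at 2 h. Brackets after a fold or ratio hold a 95% interval from the UMI counts, which covers counting error only. PCR duplicates are removed by the UMIs, but the spread between cells, animals and libraries is not in these intervals.

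In FAP-like cells the ER folding genes were lower and the amino-acid genes higher at 9 h, while Atf4 itself was nearly level. The 14 chaperones summed to 6007 CPM at 2 h and 3512 CPM at 9 h, a ratio of 0.585 (0.579 to 0.590), and 9 of the 14 were lower and 0 higher. The 8 amino-acid genes summed to 327 CPM and 767 CPM, a ratio of 2.34 (2.27 to 2.42), with 6 higher and 0 lower. Of all 10493 genes measured in these cells, 27.8% were called higher and 30.3% lower. The median log2 ratio was -0.81 over the chaperones, 1.41 over the amino-acid genes and 0.00 over all measured genes. Across all 37 members, 35 were measured in FAP-like cells, 8 were higher and 15 lower. A list of 16 dissociation, heat-shock and immediate early genes, among them Fos and Hspa1a, was also lower in these cells, with a sum of 25479 CPM at 2 h and 10076 CPM at 9 h, 14 of 16 lower and 1 higher. Each of the 16 had UMIs at both times, and the part of this list in the chaperone differences was not tested.

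**Figure D1:**
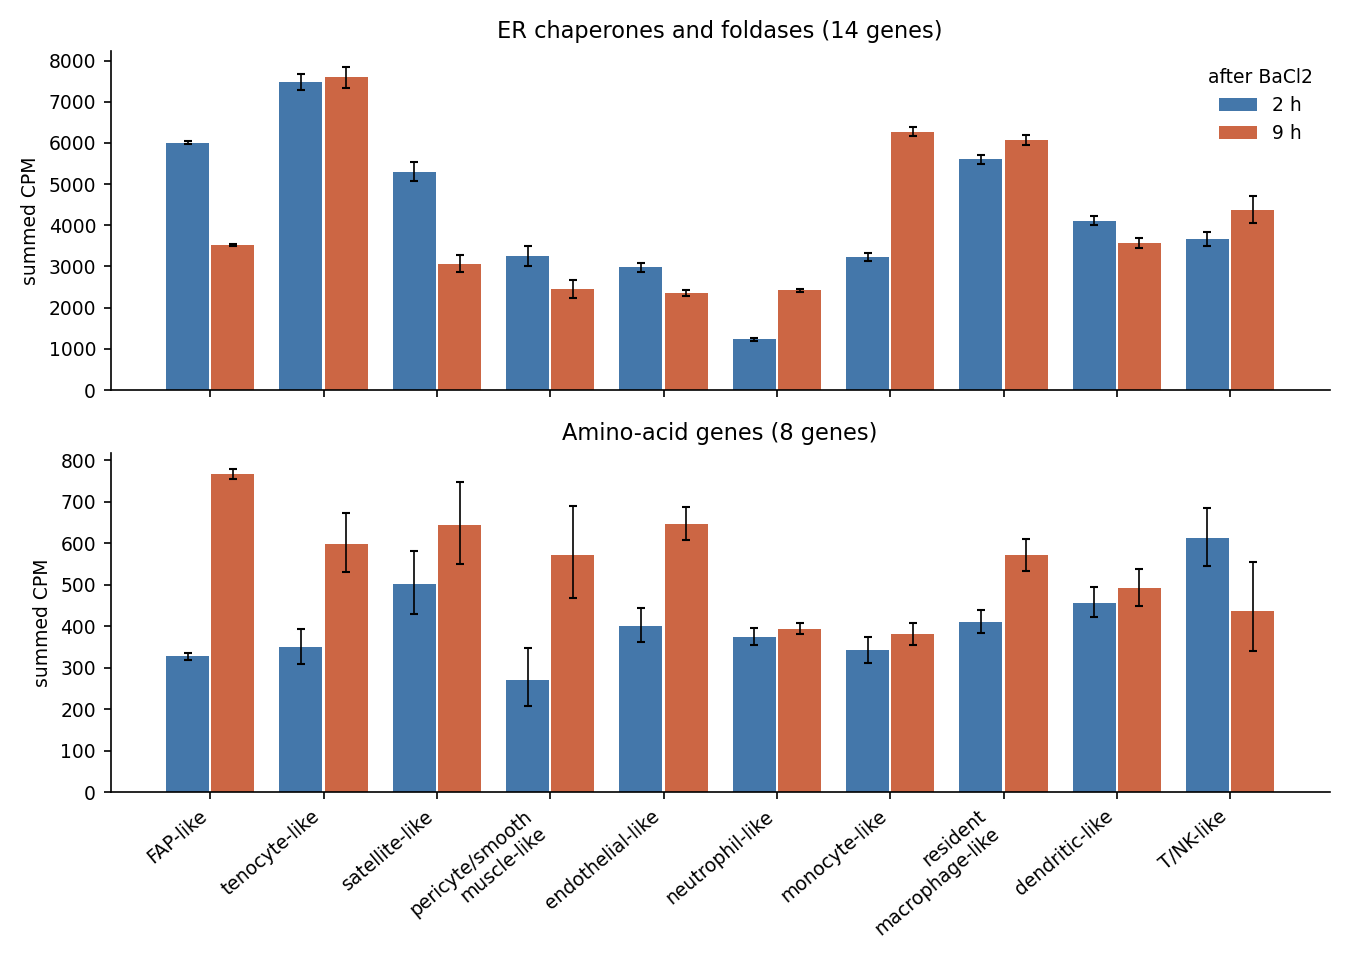
Summed CPM of the 14 ER chaperones (top) and the 8 amino-acid genes (bottom) in the 10 classes with at least 30 cells in each library. Blue bars are 2 h and red bars 9 h, and whiskers are 95% Poisson intervals on the summed UMIs. The chaperone sum stood at 6007 and 3512 CPM in FAP-like cells and at 1232 and 2417 CPM in neutrophil-like cells.

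Hspa5, which encodes BiP, the main HSP70 chaperone of the ER (chromosome 2, 34771970 to 34777547, plus strand), was the most abundant member in FAP-like cells. It stood at 2354 CPM at 2 h and 1438 CPM at 9 h, 1.64-fold lower (1.61 to 1.66), and made up 39.2% and 41.0% of the chaperone sum. With TMM scaling, which sets library totals by a trimmed mean over genes, its ratio was 0.675 and was not called. Hsp90b1, the ER HSP90 known as GRP94, went from 947 to 493 CPM, 1.92-fold lower (1.87 to 1.97). The calcium-binding lectin chaperone Calr was 1.87-fold lower, at 646 and 345 CPM. Its membrane-bound relative Canx stood at 287 and 252 CPM, a ratio of 0.880 (0.845 to 0.916) that was not called. The soluble lectin chaperone thus passed the fold and its membrane-bound relative did not.

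Among the protein disulfide isomerases, Pdia4 had the largest difference of the chaperones in FAP-like cells, at 101 and 29.7 CPM, 3.41-fold lower (3.10 to 3.75). Pdia3, the isomerase that works with the lectin chaperones, stood at 448 and 218 CPM, 2.06-fold lower. Pdia6 stood at 252 and 146 CPM, 1.72-fold lower. All 3 isomerases were therefore lower at 9 h, by unequal amounts.

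Creld2, a secreted ER stress protein, was at 46.8 and 15.4 CPM, 3.04-fold lower (2.66 to 3.48), and Sdf2l1, a partner of the co-chaperone Dnajb11, at 37.7 and 12.4 CPM, 3.03-fold lower. Dnajc3 (P58IPK), a BiP co-chaperone that also inhibits PERK, went from 332 to 141 CPM, 2.36-fold lower. The remaining 4 chaperones did not pass the fold. Manf, a secreted stress factor that binds BiP, stood at 289 and 205 CPM, a ratio of 0.708 (0.679 to 0.739). Dnajb9, a co-chaperone that restrains IRE1, had a ratio of 0.694, and Hyou1, the nucleotide exchange factor of BiP, had a ratio of 0.742. Dnajb11 stood at 81.9 and 85.1 CPM, a ratio of 1.04 (0.967 to 1.12). Of the 7 chaperones with an ERSE in the promoter lines above, 6 were lower in FAP-like cells. So were 3 of the 5 with a RefSeq promoter and no ERSE, beside 30.3% of all genes measured in these cells. In neutrophil-like cells 6 of the 6 measured with an ERSE and 2 of the 3 measured without were higher, beside 17.3% of all genes. In monocyte-like cells 5 of 7 and 4 of 5 were higher, beside 12.7%.

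Of the 4 degradation genes among the members, 3 were lower in FAP-like cells, beside 30.3% of all genes measured in these cells. Of 15 other degradation genes measured, 4 were lower and 2 higher, as given below. The group summed to 259 and 137 CPM, a ratio of 0.531 (0.506 to 0.557). Edem1, which takes glycoproteins out of the folding cycle, stood at 52.2 and 20.1 CPM, 2.60-fold lower (2.30 to 2.94). Herpud1, a membrane organiser of the degradation complex, stood at 104 and 48.2 CPM, 2.16-fold lower, and Sel1l, the scaffold of the HRD1 ligase, at 81.4 and 48.4 CPM, 1.68-fold lower. Syvn1, the HRD1 ligase itself, stood at 21.3 and 20.8 CPM, a ratio of 0.974 (0.842 to 1.13).

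The sensors did not share a direction. Atf6 was at 73.6 CPM and 73.9 CPM, a ratio of 1.004 (0.929 to 1.08). Ern1 was higher, from 12.3 to 24.2 CPM, a ratio of 1.96 (1.66 to 2.32). Eif2ak3 was at 12.6 and 9.08 CPM, a ratio of 0.721 (0.586 to 0.886), from 205 and 178 UMIs. Xbp1, the factor that IRE1 activates by splicing, was lower, from 294 to 171 CPM (1.72-fold, 1.64 to 1.80).

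Atf4 transcripts stood at 422 and 449 CPM in FAP-like cells, a ratio of 1.06 (1.03 to 1.10). Of its 6 stress targets and feedback genes 2 were lower, 1 was higher, 1 was not called and 2 were below the measuring limit. Ddit3, which encodes the death-linked factor CHOP, went from 44.7 to 22.3 CPM, 2.00-fold lower (1.77 to 2.26). Ddit4, an inhibitor of mTORC1, went from 43.6 to 18.9 CPM, 2.31-fold lower. Ppp1r15a (GADD34), which dephosphorylates eIF2α, stood at 249 and 176 CPM, a ratio of 0.708 that was not called. Trib3 had 41 and 19 UMIs and the glutathione-degrading enzyme gene Chac1 had 7 and 6 UMIs, too few to be measured. Sesn2, a leucine sensor and ATF4 target, was the member of the group that was higher, at 6.14 and 12.4 CPM, a ratio of 2.02 (1.59 to 2.57). The 7 genes summed to 769 and 680 CPM.

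The amino-acid genes moved the other way in the same cells. Psat1, which transfers the amino group in serine synthesis (chromosome 19, 15904678 to 15947337, minus strand), stood at 8.66 CPM at 2 h (141 UMIs) and 104 CPM at 9 h (2046 UMIs), a ratio of 12.05 (10.2 to 14.4). Slc7a5, the LAT1 importer of leucine and other large neutral amino acids, went from 15.2 to 103 CPM, a ratio of 6.74 (5.90 to 7.72). Asns, asparagine synthetase, went from 14.8 to 74.3 CPM, a ratio of 5.02 (4.37 to 5.77). These 3 genes had the highest ratios of the group.

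Both mitochondrial one-carbon enzyme genes were also higher. Mthfd2 went from 16.3 to 77.6 CPM, a ratio of 4.77 (4.18 to 5.45), and Shmt2 from 12.2 to 36.7 CPM, a ratio of 3.02 (2.58 to 3.55). Slc3a2 (CD98hc), the heavy chain that partners Slc7a5 at the cell surface, was the most abundant of the group, at 156 and 234 CPM, with a ratio of 1.503 (1.43 to 1.58). It made up 47.6% of the summed level at 2 h and 30.5% at 9 h, and without it the group's ratio was 3.11. Slc7a1, the cationic amino-acid importer CAT1, stood at 89.9 and 123 CPM, a ratio of 1.37 that was not called. Phgdh, the first enzyme of serine synthesis, stood at 14.6 and 14.1 CPM, a ratio of 0.971 (0.813 to 1.16), so that the first and the next enzyme of this pathway differed in their ratios. As a share of the chaperone sum, the amino-acid genes of these cells stood at 5.45% (2 h) and 21.8% (9 h).

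**Figure D2:**
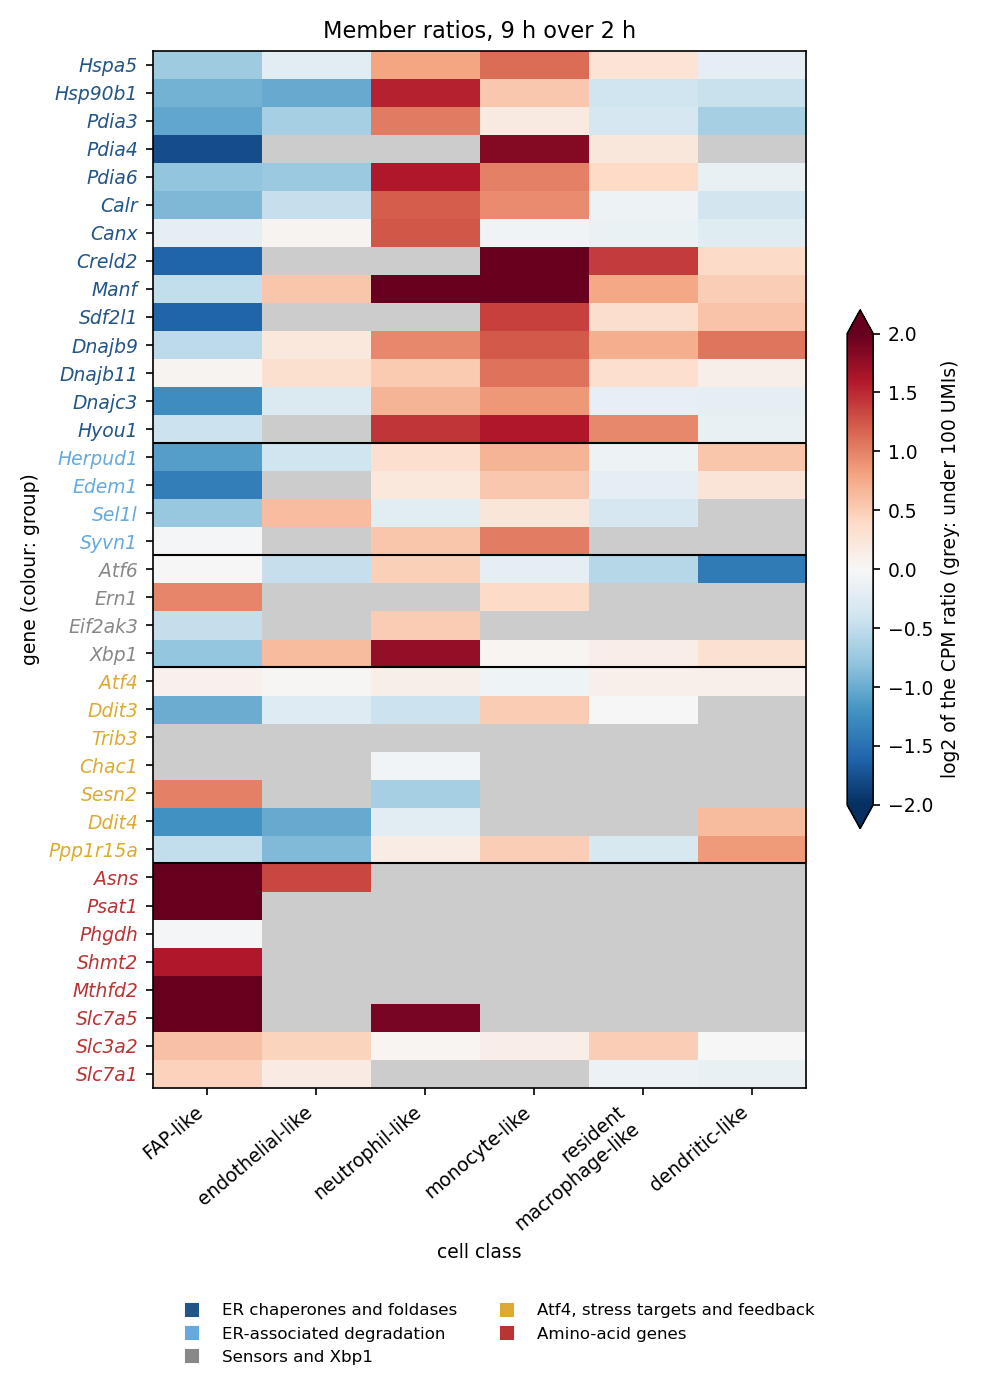
Colour map of the log2 ratio of CPM (9 h over 2 h) of each of the 37 genes (rows, coloured by group) in the 6 classes compared (columns). Red is higher at 9 h, blue lower, and grey cells had under 100 UMIs. In FAP-like cells 9 of the 14 chaperones are called lower, while 10 are called higher in neutrophil-like and 11 in monocyte-like cells, and 6 of the 8 amino-acid genes are called higher in FAP-like cells.

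Within the FAP-like clusters the 2 h cells had similar chaperone sums, 5900 CPM in cluster 3 and 6250 CPM in cluster 7. The 9 h clusters were all lower, at 3757 CPM in cluster 2 (led by Cxcl5 and Ccl2), 2956 CPM in cluster 8 (led by Saa1) and 3105 CPM in cluster 12. Amino-acid genes summed to 859, 599 and 633 CPM in clusters 2, 8 and 12, against 329 and 322 CPM in clusters 3 and 7. Xbp1 set cluster 8 apart, with 279 CPM against 137 CPM in cluster 2 and 132 CPM in cluster 12. In the 33 cells from 9 h that fell into cluster 3, chaperones summed to 5950 CPM, beside 5900 CPM in the 2 h cells of that cluster (ratio 1.01, 0.940 to 1.08), and amino-acid genes to 449 beside 329 CPM (ratio 1.36, 1.04 to 1.76). The lower chaperone level at 9 h was seen in clusters 2, 8 and 12 and not in those 33 cells. Clustering by expression placed those 33 cells with 2 h cells, so their similar level is not independent of that grouping.

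Neutrophil-like cells showed the opposite pattern for folding genes. Chaperones summed to 1232 CPM at 2 h and 2417 CPM at 9 h, a ratio of 1.96 (1.90 to 2.03). Of the 14, 11 were measured and 10 were higher, against a background of 17.3% higher and 22.5% lower among 4922 genes. The median log2 ratio of the measured chaperones was 0.92, beside -0.07 over all genes. Amino-acid genes summed to 374 and 393 CPM, a ratio of 1.05 (0.986 to 1.12), of which Slc3a2 alone made up 96.2% and 94.5%.

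Hspa5 stood at 767 CPM and 1324 CPM in neutrophil-like cells, a ratio of 1.73 (1.65 to 1.80). Manf had the largest ratio of the members there, at 12.3 CPM (43 UMIs) and 124 CPM (1021 UMIs), a ratio of 10.1 (7.44 to 14.03). Xbp1 went from 152 to 516 CPM, a ratio of 3.39 (3.10 to 3.72), and at 9 h it was higher in neutrophil-like cells than in any other class with at least 30 cells, ahead of endothelial-like cells at 385 CPM. Without Xbp1 the sensor group had a ratio of 1.28 in place of 2.88.

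Hsp90b1 went from 51.0 to 148 CPM in neutrophil-like cells, a ratio of 2.90, and Dnajb9 from 203 to 393 CPM, a ratio of 1.94 (1.79 to 2.10). Ratios were 3.02 for Pdia6, 2.68 for Hyou1, 2.37 for Canx, 2.32 for Calr, 2.05 for Pdia3 and 1.60 for Dnajc3. Dnajb11 had a ratio of 1.44 and was not called. Pdia4 (8 and 17 UMIs), Creld2 (28 and 58 UMIs) and Sdf2l1 (2 and 4 UMIs) were too scarce to be measured, although they had the largest folds of the chaperones in FAP-like cells. Of the degradation genes 0 of 4 were called, with ratios of 0.858 for Sel1l, 1.15 for Edem1, 1.26 for Herpud1 and 1.46 for Syvn1. The sensor genes Atf6 (1.39) and Eif2ak3 (1.42) were not called, and Ern1 had 30 and 50 UMIs.

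The summed stress arm was nearly level between the times in neutrophil-like cells. Its 7 genes summed to 1398 CPM at 2 h and 1398 CPM at 9 h, beside 1344 and 995 CPM in endothelial-like cells. In neutrophil-like cells Ppp1r15a stood at 741 and 818 CPM and Ddit3 at 194 and 145 CPM (ratio 0.744). In each library both were higher here than in any other class with at least 30 cells. Sesn2 was likewise highest here, at 124 and 77.9 CPM, and was called lower (1.59-fold, 1.41 to 1.80), a call lost with TMM scaling (1.44-fold). Atf4 stood at 294 and 320 CPM, a ratio of 1.09, and Ddit4 (0.858) and Chac1 (0.959) were not called, while Trib3 had 8 and 6 UMIs. Slc7a5 was the amino-acid gene called higher, from 3.42 CPM (12 UMIs) to 12.7 CPM (105 UMIs), a ratio of 3.72 (2.04 to 7.43). The biosynthetic genes were close to 0, with 16 and 27 UMIs for Asns, 12 and 18 for Mthfd2, 1 and 8 for Psat1, 1 and 2 for Phgdh and 0 and 3 for Shmt2, and the importer gene Slc7a1 had 8 and 17, among 1633 and 4296 cells.

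**Figure D3:**
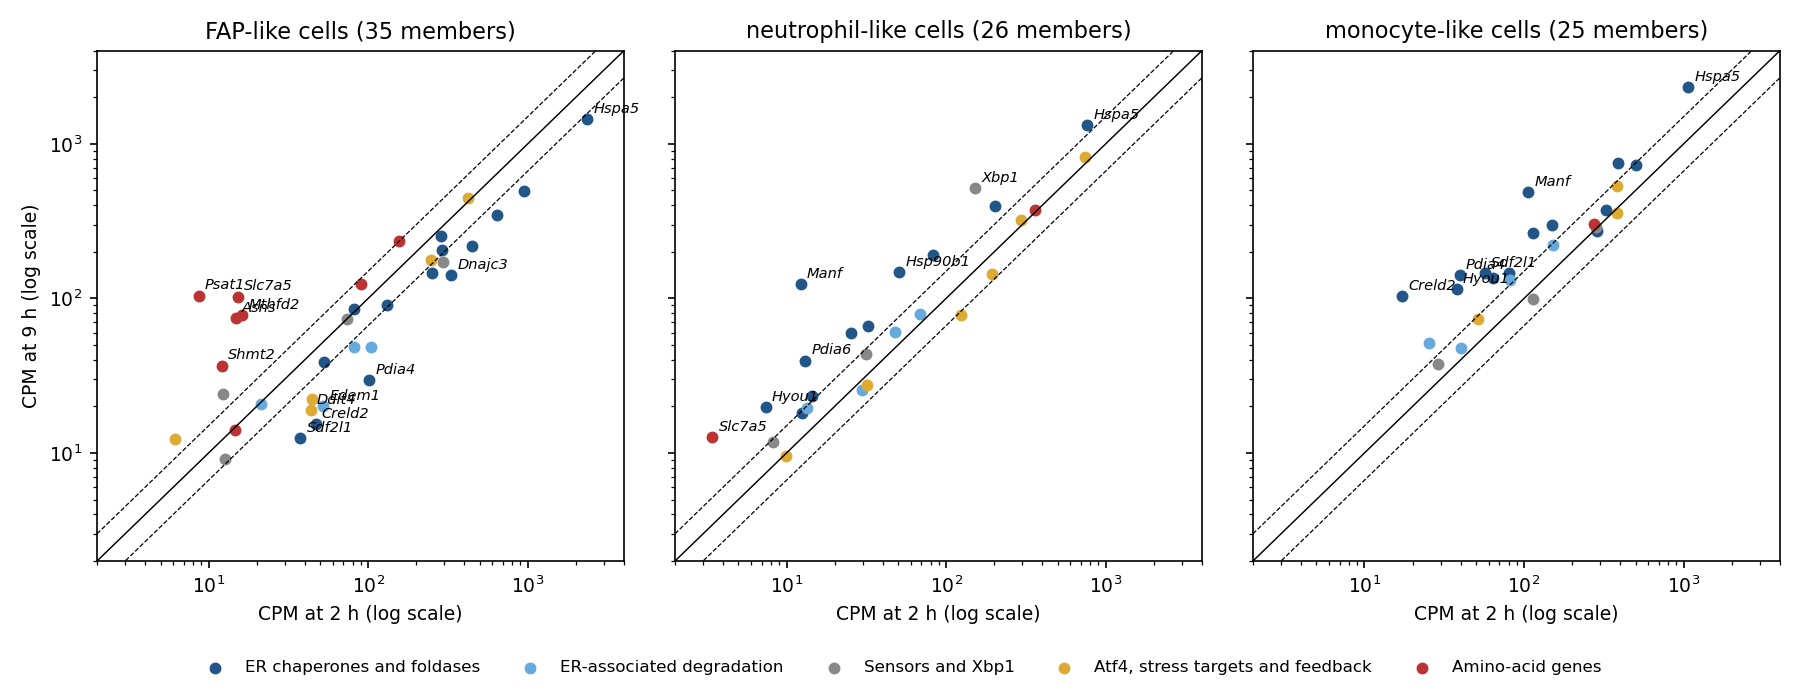
CPM at 9 h (vertical, log scale) against CPM at 2 h (horizontal, log scale) for the measured members in FAP-like (35 genes), neutrophil-like (26) and monocyte-like cells (25), coloured by group. The solid line marks equal levels and the dashed lines 1.5-fold; in FAP-like cells Psat1, Slc7a5, Asns and Mthfd2 lie far above the lines and Pdia4, Creld2 and Sdf2l1 below them.

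Cluster 0 was the neutrophil-like cluster with over 100 cells in each library (1448 and 513), and in it the chaperone difference was smaller. Chaperones summed to 1220 and 1583 CPM there, a ratio of 1.30 (1.22 to 1.38), and 2 chaperones were called higher in place of 10. Hspa5 stood at 764 and 893 CPM, a ratio of 1.17, while Xbp1 stood at 151 and 354 CPM (ratio 2.34, 2.01 to 2.72) and Manf at 12.5 and 44.3 CPM (ratio 3.54, 2.17 to 5.76). At 9 h, clusters 1, 4 and 5 had chaperone sums of 2562, 2316 and 2734 CPM. Cluster 5 also had the highest summed stress arm of these, at 1706 CPM, with Ppp1r15a at 1069 CPM.

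Monocyte-like cells also had higher chaperones at 9 h. The group summed to 3232 and 6273 CPM, a ratio of 1.94 (1.88 to 2.01), and 11 of 14 were higher and 0 lower, against 12.7% higher and 20.6% lower among 3887 genes. Creld2 went from 17.1 to 103 CPM, a ratio of 6.05 (3.93 to 9.75), Manf from 106 to 485 CPM, a ratio of 4.56 (3.82 to 5.47), and Pdia4 from 39.4 to 141 CPM, a ratio of 3.59 (2.67 to 4.90). Hspa5 stood at 1067 and 2320 CPM, a ratio of 2.17 (2.05 to 2.31). Hyou1 had a ratio of 3.04, Sdf2l1 of 2.57, Dnajb9 of 2.33, Dnajb11 of 2.11, Pdia6 of 2.02, Calr of 1.94 and Dnajc3 of 1.81. The chaperones not called were Hsp90b1 (ratio 1.45), Pdia3 (1.13) and Canx (0.948).

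Herpud1 and Syvn1, with ratios of 1.60 and 2.04, were the degradation genes called higher in monocyte-like cells, while Edem1 (1.45) and Sel1l (1.18) were not. Atf6 (0.877) and Ern1 (1.31) were not called. Xbp1 stood at 281 and 289 CPM, a ratio of 1.03 (0.902 to 1.17), unlike its ratio in neutrophil-like cells, although that difference was not tested. Atf4 had a ratio of 0.939, Ddit3 of 1.43 and Ppp1r15a of 1.41, and 0 genes of this arm were called. Slc3a2 was the 1 amino-acid gene measured, at 275 and 303 CPM. The other 7, with Eif2ak3, Trib3, Chac1, Sesn2 and Ddit4, had under 100 UMIs.

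Resident macrophage-like cells had high chaperone sums at both times, 5598 and 6063 CPM, a ratio of 1.08. Creld2 (ratio 2.64), Hyou1 (1.94), Manf (1.71) and Dnajb9 (1.65) were higher, 4 of 14, and 0 members were lower, beside 16.8% higher and 18.5% lower among 4292 genes. With TMM scaling, 4 members were higher and 1 lower. Hspa5 stood at 2196 and 2664 CPM and Atf4 at 368 and 395 CPM, and the lowest ratios were those of Atf6 (0.675), Hsp90b1 (0.755) and Pdia3 (0.789). With monocyte-like and resident macrophage-like cells as 1 class, 8 of 14 chaperones and 11 of the 29 members measured were higher and 0 lower, against 11.0% and 19.0% of 6079 genes. Creld2 had the highest ratio of that joint class, 4.07.

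Endothelial-like cells resembled FAP-like cells in the direction of both sums. Chaperones summed to 2983 and 2354 CPM (ratio 0.789, 0.751 to 0.829) and amino-acid genes to 402 and 647 CPM (ratio 1.61, 1.43 to 1.81). Among 21 members measured 3 were higher and 5 lower, beside 21.1% and 19.7% of 3947 genes. Hsp90b1 stood at 542 and 270 CPM, 2.01-fold lower (1.76 to 2.28), and Pdia6 and Pdia3 were 1.68-fold and 1.58-fold lower. With TMM scaling, 1 chaperone was higher and 3 lower, in place of 0 and 3. Ddit4 (147 and 73.2 CPM) and Ppp1r15a (620 and 336 CPM) were 2.01-fold and 1.85-fold lower. Asns went from 20.9 to 52.7 CPM, a ratio of 2.53 (1.54 to 4.34), and Xbp1 from 249 to 385 CPM, a ratio of 1.54 (1.33 to 1.80). Sel1l was called at a ratio of 1.53, but its interval (0.989 to 2.41) reached below 1. Hspa5 (0.852), Atf4 (1.02) and Ddit3 (0.833) were not called. The fibroblast gene Dcn stood here at 1.87% and 12.7% of its FAP-like level, so RNA from other cells was more abundant in these cells at 9 h, and its part in these ratios was not tested.

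Dendritic-like cells differed little between the libraries. Chaperones summed to 4105 and 3572 CPM, a ratio of 0.870, with 1 of 13 measured higher and 1 lower. Over all members 3 were higher and 2 lower, beside 15.3% and 15.8% of 2961 genes. Dnajb9 (57.3 and 120 CPM, ratio 2.09), Ppp1r15a (390 and 703 CPM, ratio 1.80) and Ddit4 (ratio 1.55) were higher. Atf6 stood at 152 and 57.3 CPM, 2.66-fold lower (1.96 to 3.65), and Pdia3 was 1.59-fold lower. Amino-acid genes summed to 457 and 492 CPM.

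The smaller classes are given without calls. Tenocyte-like cells (80 and 61) had the highest chaperone sums of the classes with at least 30 cells, 7470 and 7590 CPM, and their amino-acid sums were 350 and 598 CPM. Satellite-like cells, the muscle stem cells (81 and 69), had 5302 and 3062 CPM of chaperones and 501 and 644 CPM of amino-acid transcripts. In pericyte- and smooth muscle-like cells (32 and 36) the chaperone sums were 3250 and 2449 CPM and the amino-acid sums 270 and 571 CPM, and in T and NK-like cells (103 and 37) they were 3674 and 4367 CPM and 612 and 437 CPM. The amino-acid sum relative to the chaperone sum was higher at 9 h in FAP-like, satellite-like (9.44% and 21.0%), pericyte-like (8.31% and 23.3%), endothelial-like (13.5% and 27.5%), tenocyte-like (4.68% and 7.88%), resident macrophage-like (7.34% and 9.42%) and dendritic-like cells (11.1% and 13.8%). It was lower at 9 h in neutrophil-like (30.4% and 16.3%), monocyte-like (10.6% and 6.08%) and T and NK-like cells (16.6% and 10.0%). The mesenchymal and endothelial classes thus all had a higher share at 9 h, as did satellite-like, resident macrophage-like and dendritic-like cells.

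Most UMIs of these genes came from few classes, and each share is read beside the class's share of all UMIs. FAP-like cells held 59.0% of all kept UMIs at 2 h and 55.8% at 9 h, and neutrophil-like cells 12.7% and 23.5%. FAP-like cells held 62.1% of all Psat1 UMIs at 2 h and 93.3% at 9 h, and 78.5% and 90.04% of Asns UMIs. For Hspa5 they held 70.3% and 53.3%, with neutrophil-like cells at 4.94% and 20.7%. For Xbp1, FAP-like cells held 68.6% and 35.1% and neutrophil-like cells 7.63% and 44.6%, the larger share at 9 h. In level, Hspa5 was highest in satellite-like cells at 2 h (2921 CPM) and tenocyte-like cells at 9 h (3244 CPM), and lowest in neutrophil-like cells at 2 h (767 CPM) and endothelial-like cells at 9 h (868 CPM).

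Single cells were compared after thinning each to 1000 UMIs, which left out 24 and 52 FAP-like, 96 and 324 neutrophil-like and 0 and 4 monocyte-like cells. The median FAP-like cell had 5 chaperone UMIs per 1000 at 2 h (quartiles 3 and 8) and 3 at 9 h (1 and 4). The median neutrophil-like cell had 1 and 2, and the median monocyte-like cell 3 and 6. At least 1 amino-acid UMI was found in 27.2% of FAP-like cells at 2 h and 52.2% at 9 h, in 29.1% and 30.3% of neutrophil-like cells and in 26.7% and 30.6% of monocyte-like cells. The shift in FAP-like cells was thus spread over many cells in both groups of genes.

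Psat1 UMIs were found in 0.600% of thinned FAP-like cells at 2 h (exact binomial interval 0.310 to 1.04%) and 9.70% at 9 h (8.53 to 11.0%), or 5.88% and 45.2% before thinning, at median depths of 8014 and 8292 UMIs. In neutrophil-like cells, which served as the class with little of this gene, the shares were 0 of 1537 cells (a floor of 3 counts allows up to 0.195% of thinned cells with a UMI) and 0.0755%, at median depths of 2041 and 1713 UMIs. Slc7a5 was found in 1.70% and 10.4% of thinned FAP-like cells (9.63% and 49.8% unthinned) and Asns in 1.75% and 7.39% (9.88% and 38.3%), beside 0.390% and 0.302% of thinned neutrophil-like cells for Asns. Hspa5 went the other way, with 77.5% and 62.5% of thinned FAP-like cells (98.0% and 95.4% unthinned).

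Xbp1 was found in 12.2% (10.6 to 13.9%) and 36.8% (35.3 to 38.3%) of thinned neutrophil-like cells, or 23.0% and 51.7% before thinning. Manf was found in 1.56% and 10.5% of them (2.57% and 17.8% unthinned), and in 11.0% and 34.8% of thinned monocyte-like cells (48.3% and 81.0%). These genes were therefore also in a larger share of cells at 9 h in these classes.

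**Figure D4:**
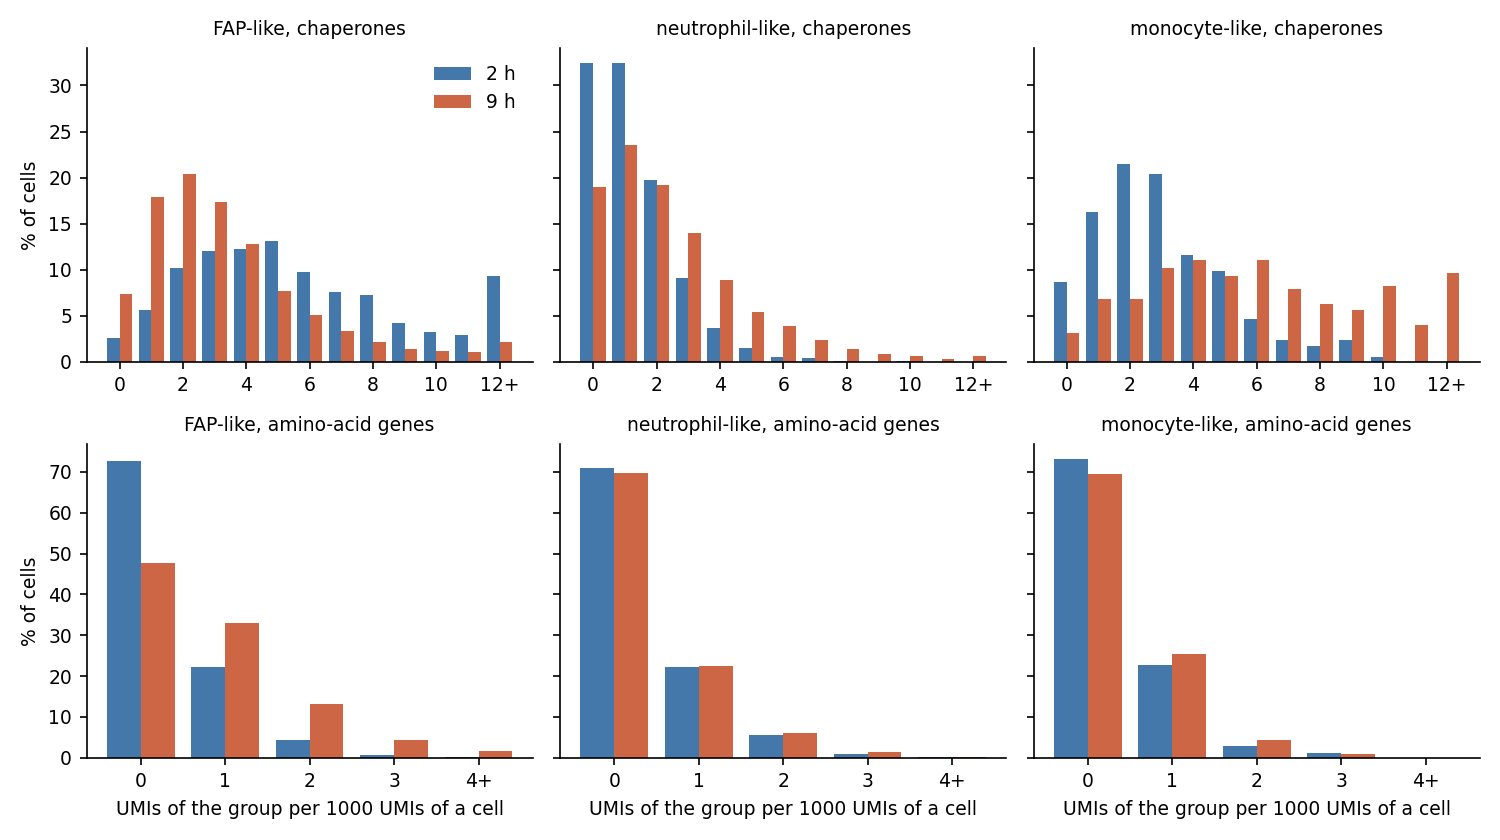
Share of cells (vertical, %) by the number of UMIs of the 14 chaperones (top row) or the 8 amino-acid genes (bottom row) among 1000 UMIs per cell, in FAP-like, neutrophil-like and monocyte-like cells at 2 h (blue) and 9 h (red). For chaperones the 9 h cells lie to the left of the 2 h cells in FAP-like cells (medians 3 and 5) and to the right in monocyte-like cells (6 and 3); the amino-acid counts move in FAP-like cells, where 52.2% of 9 h cells have at least 1.

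RNA from other classes was gauged from a gene of another class. Whether it was free in the droplets or came from doublets was not tested. Dcn, a fibroblast matrix gene, stood in neutrophil-like cells at 0.814% and 0.816% of its FAP-like level, and the same share of FAP-like transcripts would carry 48.9 and 28.6 CPM of chaperones into them, of 1232 and 2417 CPM. For Psat1 it would carry 0.851 of the 0.969 CPM seen in neutrophil-like cells at 9 h, so that value was read as background. S100a8, a neutrophil gene, stood in FAP-like cells at 0.944% and 1.86% of its neutrophil-like level, which would carry 11.6 and 44.9 CPM of chaperones, and 9.57 of the 171 CPM of Xbp1 at 9 h. In monocyte-like cells the chaperones carried from FAP-like cells would be 135 and 15.05 CPM and those from neutrophil-like cells 27.5 and 149 CPM, of 3232 and 6273 CPM. The latter values take all S100a8 in monocyte-like cells as carried over, and any expression of their own was not separated. Endothelial-like cells at 9 h stood out, with Dcn at 12.7% and S100a8 at 11.7% of those levels, which would carry 448 and 283 of their 2354 CPM of chaperones and 97.7 and 46.1 of their 647 CPM of amino-acid transcripts.

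The 16 dissociation, heat-shock and immediate early genes also had lower sums at 9 h in endothelial-like (31801 and 15169 CPM) and resident macrophage-like cells (35282 and 20950 CPM). The sums were 9882 and 9478 CPM in neutrophil-like cells, 15166 and 16765 CPM in monocyte-like cells and 20152 and 17808 CPM in dendritic-like cells. The part of this list in these classes was not tested either.

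Other genes of the same pathways were read in FAP-like cells as lists. Of 44 other ER folding, translocation and secretory genes, 4 were higher, 10 lower and 30 neither, beside 27.8% higher and 30.3% lower of all genes measured in these cells, and their sum was 5854 and 5384 CPM. The lowest ratios were those of the retrieval receptor Kdelr3 (3.79-fold lower), Fkbp2 (3.60-fold lower) and the COPII coat gene Sec24d (2.72-fold lower), and the highest those of Fkbp11 (2.13), Ssr4 (1.72) and Mydgf (1.55). Of 15 other degradation genes measured 2 were higher (Nploc4 at 1.78 and Ufd1 at 1.51) and 4 lower, led by Edem2 (3.15-fold), Os9 (2.15-fold) and Derl1 (1.94-fold), and Vcp had a ratio of 1.42. Of 9 other regulators 4 were higher, led by Bax (51.0 and 157 CPM, ratio 3.08), Atf6b (1.95) and Bak1 (1.73), and 3 were lower, Creb3l2 (2.54-fold), the ATF6 protease gene Mbtps1 (1.79-fold) and Creb3 (1.61-fold). The shares called lower in the folding and degradation lists were below the share over all measured genes.

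On the ATF4 side, 10 of 13 aminoacyl-tRNA synthetase genes were higher and 0 lower in FAP-like cells, beside 27.8% and 30.3% of all genes. They summed to 644 and 1239 CPM. The highest ratios were 3.61 for Iars, 3.38 for Gars and 3.16 for Tars, and the lowest 0.977 for Eprs, 1.14 for Aars and 1.18 for Mars. Of 16 other amino-acid and one-carbon genes measured, 6 were higher and 2 lower, beside the same 27.8% and 30.3%. Shmt1, the cytosolic serine hydroxymethyltransferase, went from 0.737 CPM (12 UMIs) to 21.98 CPM (431 UMIs), a ratio of 29.8 (16.9 to 58.2), Mthfd1l had a ratio of 10.3 and Mthfd1 of 6.15. The proline-synthesis gene Pycr1 was 4.82-fold lower and Pck2 1.86-fold lower, and Slc6a9 had a ratio of 0.768. Of 18 other integrated stress response genes measured, 4 were higher and 5 lower, shares below those over all genes. Eif2s1, which encodes eIF2α, had a ratio of 3.02, the amino-acid sensing kinase gene Eif2ak4 (GCN2) 2.10 and the haem-sensing kinase gene Eif2ak1 1.47. Atf3 went from 537 to 53.8 CPM, 9.98-fold lower, and is also among the 16 immediate early and heat-shock genes; the viral RNA sensor gene Eif2ak2 (PKR) was 6.00-fold and Sesn3 3.42-fold lower.

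In neutrophil-like cells 16 of 33 other ER folding genes measured were higher and 2 lower (sums of 1623 and 2513 CPM), beside 17.3% and 22.5% of all genes, and of 4 tRNA synthetase genes measured 1 was higher and 2 lower. In the joint monocyte-like and resident macrophage-like class 19 of 40 other ER folding genes were higher and 0 lower (4515 and 6939 CPM), beside 11.0% and 19.0% of all genes, as were 5 of 15 other degradation genes and 3 of 10 tRNA synthetase genes. The median log2 ratio of this folding list was 0.47 in neutrophil-like cells, 0.48 in the joint class and -0.15 in FAP-like cells, beside -0.07, -0.03 and 0.00 over all genes.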

How the data were processed

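Droplet 3′ libraries of mouse quadriceps mononuclear cells (1 at 2 h and 1 at 9 h) were analysed from the deposited counts (UMIs per gene and barcode). The submitters' processing notes name Cell Ranger 5.0.0 and mm10. The sources used here do not give further settings of the authors. Of 5729 and 8790 barcodes, those with under 200 genes or 500 UMIs (513 and 264) and then those over 20% mitochondrial UMIs (316 and 379) were removed. Scrublet called 6 and 0 doublets, so its calls were set aside.

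Counts were scaled to 10000 per cell, and 2000 variable genes (8 module genes dropped), 30 principal components, 15 neighbours and Leiden clustering at resolution 1 gave the clusters, named from 21 marker lists. UMIs were summed per class and library. Levels carry exact Poisson intervals, ratios exact conditional binomial and shares Clopper-Pearson intervals, at 95%, for counting error only. Log2 ratios used 10 CPM as pseudocount. With 1 library per time no test was made. The ratio step was tested on simulated Poisson counts drawn from the pooled libraries, without cell classes or spread between cells, animals or libraries. That test checks the calculation only. The members and lists were chosen with earlier results of these data known. Every measured member could be named in FAP-like, neutrophil-like and monocyte-like cells; elsewhere Hspa5, Atf4, Ddit3, Asns and the 3 highest and 3 lowest ratios, with other called members added after their values were seen; from other lists, the 3 highest and 3 lowest in FAP-like cells. Tools were Python 3.11.15, numpy 2.4.6, scipy 1.17.1, pandas 2.3.3, Scanpy 1.11.5, leidenalg 0.10.2 and edgeR 4.0.16 (TMM factors only) in R 4.3.3. Positions are from GENCODE, on mm10.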

Additional observations from a re-analysis of the deposited data

Results flagged for a closer look

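Chaperone ratios (9 h over 2 h) pointed in opposite directions in different cell classes of the same libraries, and each such difference between classes was not tested, because there was 1 library per time. The summed chaperone ratio was 0.585 in FAP-like cells, 1.96 in neutrophil-like cells and 1.94 in monocyte-like cells. Hspa5 had ratios of 0.611, 1.73 and 2.17 in these classes, Pdia6 of 0.581, 3.02 and 2.02, Calr of 0.534, 2.32 and 1.94, and Dnajc3 of 0.424, 1.60 and 1.81.

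In FAP-like against neutrophil-like cells alone, Hsp90b1 had ratios of 0.521 and 2.90, Pdia3 of 0.486 and 2.05, Xbp1 of 0.582 and 3.39, and Sesn2, in the reverse direction, of 2.02 and 0.628. In FAP-like against monocyte-like cells alone, Pdia4 had ratios of 0.293 and 3.59, Creld2 of 0.329 and 6.05, Sdf2l1 of 0.331 and 2.57, and Herpud1 of 0.464 and 1.60. Of the 9 members called in both FAP-like and neutrophil-like cells 8 were opposite, and so were 8 of the 8 called in both FAP-like and monocyte-like cells. Of all genes called in both classes, 229 of 986 (23.2%) and 177 of 700 (25.3%) were opposite in these pairs. Slc7a5 was the exception in the first pair, called higher in both. The neutrophil-like call of Sesn2 was lost with TMM scaling and with totals without the members and the 100 most abundant genes (1.44-fold lower in each). That of Dnajc3 was lost with means over cells (ratio 1.45) and at a mitochondrial limit of 10% (1.48). In neutrophil-like cluster 0 alone both changed sign, with log2 ratios of 0.13 for Sesn2 and -0.21 for Dnajc3, and the ratios of Hspa5 (1.17), Hsp90b1 (1.38), Pdia3 (1.13) and Pdia6 (1.48) were no longer called. The FAP-like call of Hspa5 was lost with TMM scaling (ratio 0.675). The libraries of each time are shared by all classes, so the ratios of the classes are not independent.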

How the results depend on the processing

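Results were recomputed under 13 alternatives, 3 of them chosen after seeing the data (without FAP-like cluster 8, neutrophil-like cluster 0 only, and totals without the members and the 100 most abundant genes). Over the alternatives the summed chaperone ratio ran from 0.572 to 0.646 in FAP-like, 1.30 to 2.17 in neutrophil-like and 1.92 to 2.26 in monocyte-like cells, the lowest neutrophil-like value being that of cluster 0 alone, and the FAP-like amino-acid ratio from 2.33 to 2.59. TMM scaling moved the median log2 ratio of all genes by 0.11 in neutrophil-like, 0.19 in monocyte-like and 0.13 in the joint monocyte and macrophage-like cells. Relative to that median the chaperones stood at 1.02 in neutrophil-like and 1.15 in monocyte-like cells, beside 0.99 and 1.13 without it. Called members kept under every alternative that still measured them numbered 21 of 23 in FAP-like and 6 of 13 in neutrophil-like cells. They numbered 13 of 13 in monocyte-like, 5 of 8 in endothelial-like, 3 of 5 in dendritic-like and 2 of 4 in resident macrophage-like cells. Neutrophil-like cells were recomputed within cluster 0, but FAP-like cells were not recomputed within a single cluster. The FAP-like and neutrophil-like counts therefore rest on unlike alternatives. FAP-like cluster 3, with similar chaperone sums at both times, was not taken alone as an alternative. In FAP-like cells Hspa5 (ratio 0.675 with TMM) and Slc3a2 (1.49 at the lowest) were lost. A member with too few UMIs to be measured in an alternative, such as that of at least 300 UMIs, was not counted as lost there. With neutrophil-like cluster 0 only, 2 called members changed sign, Dnajc3 (log2 ratio -0.21) and Sesn2 (0.13), and chaperones called higher fell to 2 and amino-acid genes called higher to 0.

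Of 316 recomputed counts of called chaperones and amino-acid genes, 281 stayed within 1.5 times the value reported. With no filter on UMIs, amino-acid genes called higher and lower numbered 2 and 1 in neutrophil-like, 2 and 2 in monocyte-like, 3 and 1 in dendritic-like and 4 and 1 in resident macrophage-like cells, and 5 were higher in endothelial-like cells. With at least 300 UMIs, those called higher were 0 in neutrophil-like, endothelial-like and joint monocyte and macrophage-like cells, and chaperones called higher were 0 in dendritic-like and 2 in resident macrophage-like cells. At Leiden resolution 2, resident macrophage-like chaperones were 0 higher and 1 lower, and amino-acid genes called higher were 0 in endothelial-like and in joint monocyte and macrophage-like cells; the latter had 2 with TMM, with means over cells and with module genes left in. In endothelial-like cells 1 chaperone was higher with TMM, without mitochondrial, ribosomal and haemoglobin genes, with no filter, with means over cells, at a mitochondrial limit of 10% and without likely doublets, and amino-acid genes called higher were 2 with means over cells and 0 under the last pair. Dendritic-like chaperones called higher were 3 with means over cells and 2 without likely doublets, where 0 were lower. The cause was not tested, except that a stricter filter or fewer cells leaves fewer genes measured. No paired analysis was possible because each time has 1 library. The limit of 100 UMIs left 1 to 2 of 8 amino-acid genes measured in neutrophil-like, dendritic-like, monocyte-like and resident macrophage-like cells.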
